A study of Mus musculus with 16 samples.

Results

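Nos2, Hmox1 and Hif1a are 3 of the 584 genes that a quantitative PCR panel for inflammation measured in mouse colonic mucosa, with 1 assay each among the 648 assays of the panel. They were chosen by gene name as the nitric oxide, haem and hypoxia response genes of the panel, with earlier results of these samples known: the level of Nos2 and Hmox1 in DNBS colitis against healthy mucosa was already in view, so these genes were in part selected on those Ct values. Their differences from the healthy samples are therefore given as a description, with no test.

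The 16 samples fell into 4 groups of 4. Mice of the healthy group received PBS buffer both into the rectum and by mouth. The DNBS group received dinitrobenzene sulfonic acid, a hapten that causes colitis, into the rectum and PBS by mouth. The DNBS_CEC group received the same hapten with oral CEC, an agent that the labels do not spell out, and the DNBS_Nissle group received it with oral Nissle, a probiotic strain of Escherichia coli. DNBS was thus common to 12 samples, and no group received an oral agent without it. Strain, age, dose and time after DNBS were not given in the sources used here. The design text speaks of RNA pooled over mice while each sample has its own number, so whether a sample was 1 mouse or a pool is not known, and the p-values below measure only the spread between samples.

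Nos2 encodes the inducible nitric oxide synthase, which makes nitric oxide from arginine in activated macrophages, neutrophils and inflamed epithelium. Hmox1 encodes the inducible haem oxygenase, which splits haem into biliverdin, carbon monoxide and iron and is switched on by haem and by oxidative stress. Hif1a encodes the oxygen-regulated subunit of the hypoxia-inducible factor. Its protein is destroyed when oxygen is present, so its activity is set largely after transcription, and its messenger RNA is a separate quantity from its activity. The factor binds the short core ACGTG in its target genes, and Nos2 and Hmox1 are both known targets of it.

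The Hif1a promoter is shown because the promoter set used here held it and not those of Nos2 and Hmox1, which could not be searched. Hif1a encodes the factor that reads this core, so the letters that the factor binds can be looked for in front of its own start. The sequence is from RefSeq on build GRCm38.p6, chr12:73907617-73907866, plus strand, and covers the 250 bases before the annotated start. Capitals mark ACGTG on either strand, and the longer run in capitals is a forward and a reverse match that overlap.
Hif1a promoter: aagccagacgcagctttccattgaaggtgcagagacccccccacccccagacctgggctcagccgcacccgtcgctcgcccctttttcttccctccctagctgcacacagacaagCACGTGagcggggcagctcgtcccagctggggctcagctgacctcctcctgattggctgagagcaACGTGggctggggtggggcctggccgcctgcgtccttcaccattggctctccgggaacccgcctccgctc
Motifs were counted on both strands over these bases before the start only, and the same window was used for every promoter. ACGTG matched 3 times, and 16.6% of the 32851 promoters of the same length held it at least once. The loose NF-kB-like pattern, GGG and CC with any 5 bases between them, matched 3 times (held by 45.8% of promoters), and TGANNNNGC, the core of the antioxidant response element, matched 1 time (35.2%). The STAT-like pattern TTCNNNGAA (7.02%) and the TATA box TATAAA (12.4%) had no match in this window. A match describes the letters only and is no evidence of binding.

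Each assay gave a cycle threshold (Ct), the PCR cycle at which its fluorescence became detectable, and a Ct that is lower by 1 stands for roughly double the starting material. A level is written as −ΔCt: the gene's Ct was subtracted from the average Ct of 13 reference genes, which gives log2 units that increase with RNA. Because each assay has its own efficiency, levels are compared between samples of 1 gene and not between genes. An assay counted as detected at a Ct of 28 or less, and all 3 genes were detected in 16 of 16 samples. The mean Ct of the reference genes lay between 18.69 and 20.12 over the samples. Per sample, 528 to 539 assays were detected in the healthy group and 548 to 564 in the groups given DNBS. The reference genes Ywhaz and Rplp2 spread by 3.47 and 1.01 cycles (SD within groups) against 0.27 to 0.57 for the others, and both shift all levels of a sample together. Healthy sample 3 and DNBS_Nissle sample 1 held 57 and 61 values that equal the average of their 3 companion samples, none of them in the 3 genes described here. In bulk mucosa, fewer cells of a type and less RNA per cell cannot be told apart.

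Nos2 RNA was lowest in the healthy mucosa and highest under DNBS with oral PBS. In the healthy samples 3, 4, 5 and 6 its level was −5.58, −5.81, −4.17 and −5.17. In the DNBS samples 2, 3, 4 and 5 it was −0.17, −1.36, −1.96 and −1.91. Every DNBS sample was above every healthy sample, with a wide gap between the groups. The DNBS_CEC samples 1, 2, 6 and 8 stood at −2.28, −0.99, −4.09 and −4.13. The DNBS_Nissle samples 1, 4, 5 and 7 stood at −0.58, −3.48, −2.45 and −1.70. DNBS_CEC sample 2 lay within the range of the DNBS samples and sample 1 just below it, while samples 6 and 8 lay just above the highest healthy sample, at −4.17. The raw Ct of Nos2 ran from 19.54 in DNBS_Nissle sample 1 to 25.70 in healthy sample 3.

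The mean Nos2 level was −1.35 ± 0.83 (SD, n = 4) in DNBS, −2.05 ± 1.22 in DNBS_Nissle, −2.87 ± 1.52 in DNBS_CEC and −5.18 ± 0.73 in healthy mucosa. Down this order the gaps were 0.70, 0.82 and 2.31 log2 units. The first and second gap were smaller than the pooled SD of their groups (1.05 and 1.38), and the groups on either side overlapped. The gap above the healthy group exceeded the pooled SD of 1.19.

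**Figure D1:**
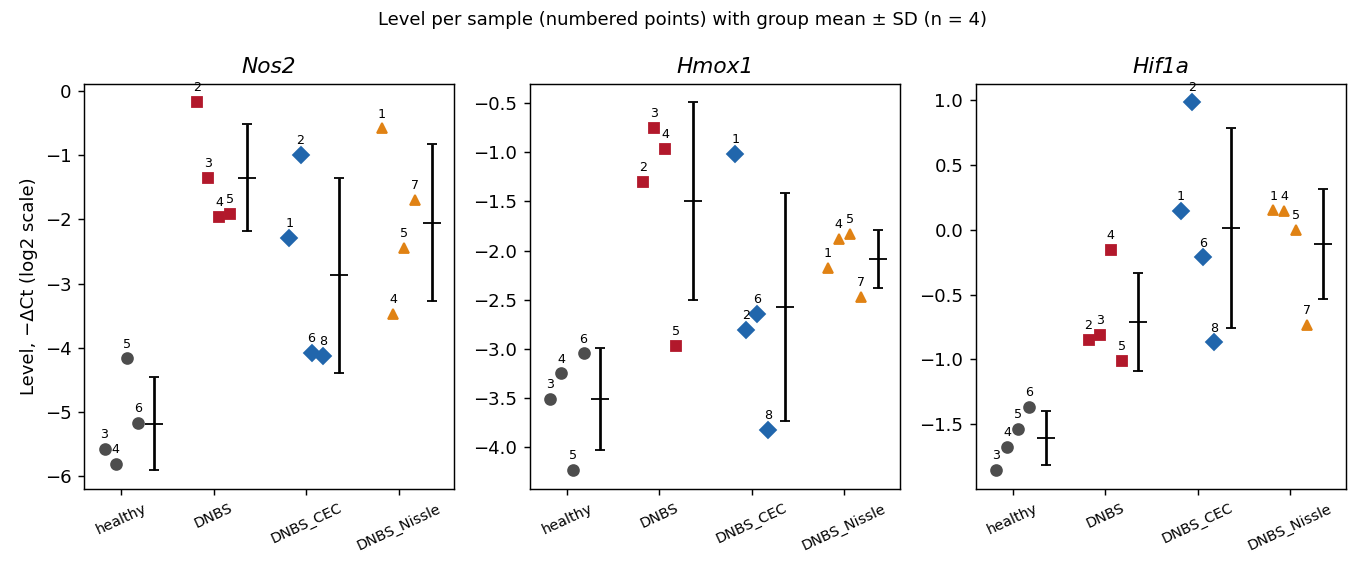
Level of Nos2, Hmox1 and Hif1a in each of the 16 samples (vertical axis, −ΔCt on a log2 scale) by group (horizontal axis); points are samples and bars are group means with their SD. For Nos2 the healthy samples lie between −5.81 and −4.17 and the DNBS samples between −1.96 and −0.17, whereas Hif1a is highest in mean in DNBS_CEC, at 0.012.

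Hmox1 had the same order of group means as Nos2, over a smaller range. Its healthy samples 3, 4, 5 and 6 were at −3.51, −3.25, −4.24 and −3.05. DNBS samples 2, 3, 4 and 5 were at −1.30, −0.75, −0.96 and −2.97, so that sample 5 stood close to the healthy samples and the other DNBS samples well above them. DNBS_CEC samples 1, 2, 6 and 8 were at −1.02, −2.81, −2.64 and −3.83, from among the highest of all samples to the second lowest. DNBS_Nissle samples 1, 4, 5 and 7 were close together, at −2.17, −1.88, −1.83 and −2.47.

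The mean Hmox1 level was −1.5 ± 1.01 (SD, n = 4) in DNBS, −2.09 ± 0.30 in DNBS_Nissle, −2.57 ± 1.16 in DNBS_CEC and −3.51 ± 0.52 in healthy mucosa. Each neighbouring pair in this order overlapped. The gaps of 0.59 and 0.48 were smaller than the pooled SD of 0.74 and 0.85, and the gap of 0.94 to the healthy group was about as large as the pooled SD of 0.90.

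Hif1a had another order: its highest mean was in DNBS_CEC and not in DNBS. Healthy samples 3, 4, 5 and 6 were at −1.85, −1.67, −1.53 and −1.37, and DNBS samples 2, 3, 4 and 5 at −0.85, −0.81, −0.16 and −1.01. DNBS_CEC samples 1, 2, 6 and 8 were at 0.15, 0.99, −0.21 and −0.87. DNBS_Nissle samples 1, 4, 5 and 7 were at 0.15, 0.15, 0.0025 and −0.74. DNBS_CEC sample 2 had the highest Hif1a level of all 16 samples, and each healthy sample was below every sample given DNBS.

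The mean Hif1a level was 0.012 ± 0.77 (SD, n = 4) in DNBS_CEC, −0.11 ± 0.42 in DNBS_Nissle, −0.71 ± 0.38 in DNBS and −1.61 ± 0.21 in healthy mucosa. DNBS_CEC and DNBS_Nissle were 0.12 apart, within their pooled SD of 0.62. DNBS_Nissle and DNBS were 0.60 apart with a pooled SD of 0.40 and overlapped through DNBS_Nissle sample 7. DNBS and healthy were 0.90 apart with a pooled SD of 0.30. The Hif1a values of DNBS sample 3 and DNBS_CEC sample 6 have 4 or fewer decimals, a mark of values that may have lost a digit pair and be off by less than 1 cycle. Without such values Hif1a was 0.96 higher in DNBS than in healthy mucosa and 1.63 higher in DNBS_CEC than in healthy mucosa.

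The spread between samples differed among the 3 genes. Within groups the SD of Nos2 was 1.12, and 42 of the 412 genes detected in all samples had a larger one. The SD of Hmox1 was 0.83, with 126 genes above it, and that of Hif1a was 0.49, with 295 genes above it. The median over the 412 genes was 0.64.

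The comparison of DNBS with healthy mucosa asks what the hapten colitis does to the tissue. Nos2 was higher by 3.83 ± 0.72 log2 units (SE), a 14.2-fold difference. Hmox1 was higher by 2.02 ± 0.55, or 4.04-fold, and Hif1a by 0.90 ± 0.37, or 1.86-fold. The groups did not overlap for any of the 3 genes, and the median difference over the 457 genes tested was 0.12. In this comparison 6.78% of the tested genes lay higher with no overlap, which is given for reference only, since this is the contrast behind the choice of Nos2 and Hmox1. Over the whole panel 1.09% of tested genes passed a limma adjusted p of 0.05, all higher. The separation of Nos2 held under 7 of 7 ways of scaling the samples, and that of Hmox1 and Hif1a under 4 of 7 each. With the 3 most stable reference genes Hif1a was 0.63 higher, and with the mean of all genes as the reference 0.67. Without DNBS sample 5 the Hmox1 difference was 2.51.

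The comparison of DNBS_CEC with healthy mucosa shares the healthy samples with the preceding one. Nos2 was higher by 2.31 ± 0.72 (4.96-fold), Hmox1 by 0.94 ± 0.55 (1.92-fold) and Hif1a by 1.62 ± 0.37 (3.07-fold), against a median of 0.08 over 458 genes. The groups did not overlap for Nos2 and Hif1a, where 2.84% of the tested genes lay higher with no overlap. For Nos2 this rested on −4.13 against −4.17 and held under 3 of 7 scalings, while for Hif1a it held under 7 of 7. No gene of the panel passed in limma (lowest adjusted p = 0.226, with 25 genes at an unadjusted p under 0.05). The Hmox1 difference was 0.42 without DNBS_CEC sample 1.

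DNBS_Nissle against the same healthy samples gave 3.13 ± 0.72 for Nos2 (8.76-fold), 1.42 ± 0.55 for Hmox1 (2.68-fold) and 1.5 ± 0.37 for Hif1a (2.82-fold). All 3 genes were higher with no overlap, as were 7.44% of the 457 tested genes, and this held under 7 of 7 scalings for each of them. The median over all tested genes was −0.09. In limma 2.41% of genes passed, all higher.

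**Figure D2:**
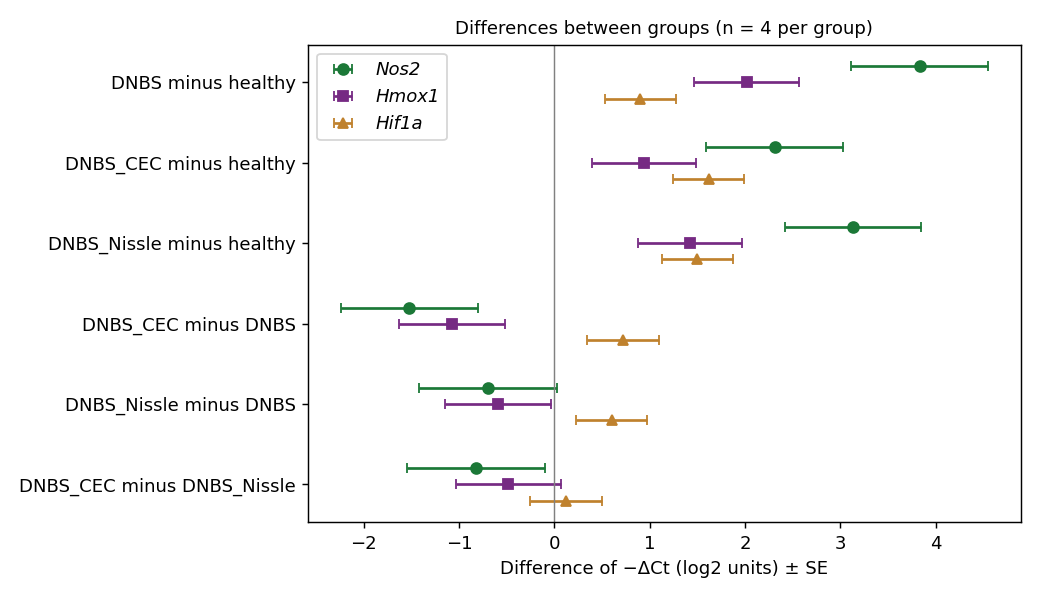
Difference in −ΔCt (horizontal axis, log2 units) for Nos2, Hmox1 and Hif1a in the 6 comparisons of groups; points are differences of means over 4 samples a group and bars are the SE of the limma model. Against healthy mucosa all points lie to the right of 0, from 0.90 to 3.83, and against DNBS the points of Nos2 and Hmox1 lie to the left and those of Hif1a to the right.

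The comparisons among the groups given DNBS ask whether an oral agent alters the colitis. They could be tested, although the DNBS samples also entered the contrast behind the choice of genes. Nos2 and Hmox1 were chosen in part on their level in these DNBS samples, which may bias their differences from DNBS downward. In DNBS_CEC against DNBS, Nos2 differed by −1.52 ± 0.72 (2.87-fold lower, 95% interval −3.05 to 0.011, limma adjusted p = 0.999). Hmox1 differed by −1.08 ± 0.55 (2.11-fold lower, −2.25 to 0.096, limma adjusted p = 0.999). Hif1a differed by 0.72 ± 0.37 (1.65-fold higher, −0.072 to 1.51, limma adjusted p = 0.999). None of the 3 genes passed, nor did any of 474 genes (0%), with 8 at an unadjusted p under 0.05. These intervals reach from no difference to more than the fitted one, so the samples do not show that the groups were alike.

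All 3 differences depended on single samples to some extent. Nos2 ranged from −2.15 to −1.10 and Hif1a from 0.40 to 1.01 when 1 sample was left out. Hmox1 ranged from −1.60 without DNBS_CEC sample 1 to −0.66 without DNBS_CEC sample 8. The sign stayed the same for each gene.

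In DNBS_Nissle against DNBS, Nos2 differed by −0.70 ± 0.72 (95% interval −2.24 to 0.83), Hmox1 by −0.59 ± 0.55 (−1.77 to 0.58) and Hif1a by 0.60 ± 0.37 (−0.19 to 1.39). The limma adjusted p was 0.995 for each, and 0 of 474 genes passed (0%), with 7 at an unadjusted p under 0.05. Because both oral groups are set against the same DNBS samples, their common signs are not separate results. With 1 sample left out, Nos2 ran from −1.19 without DNBS_Nissle sample 1 to −0.23 without DNBS_Nissle sample 4, while Hmox1 was at −1.08 when DNBS sample 5 was left out and at −0.34 when sample 3 was.

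In DNBS_CEC against DNBS_Nissle, Nos2 differed by −0.82 ± 0.72 (−2.35 to 0.71, limma adjusted p = 0.961) and Hmox1 by −0.48 ± 0.55 (−1.66 to 0.69, adjusted p = 0.961). Hif1a differed by 0.12 ± 0.37 (−0.67 to 0.91, limma adjusted p = 0.967), and its sign turned with Gapdh alone as the reference, at −0.23. With 1 sample left out, Nos2 ran from −1.45 without DNBS_CEC sample 2 to −0.33 without DNBS_Nissle sample 1, and Hmox1 from −1.003 without DNBS_CEC sample 1 to −0.067 without DNBS_CEC sample 8. Again 0 of 471 genes passed (0%), with 21 at an unadjusted p under 0.05.

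Other genes of the same pathways were sparsely covered by the panel. Of the nitric oxide and arginine list, 2 genes besides Nos2 were tested, both encoding parts of the phagocyte oxidase that makes superoxide, and neither passed in any comparison, where at most 2.41% of all tested genes did. In DNBS against healthy, Ncf1 was at 1.38 ± 0.55 (limma adjusted p = 0.324) and Cybb at 0.58 ± 0.47 (adjusted p = 0.8). The median of the list was 0.98 there, 0.49 in DNBS_CEC and 0.78 in DNBS_Nissle against healthy, beside medians of 0.12, 0.08 and −0.09 over all tested genes.

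Of the haem, iron and oxidative stress list, 6 genes besides Hmox1 were tested. Ltf, the iron-binding lactoferrin of neutrophil granules, rose by 4.32 ± 0.95 in DNBS against healthy (19.95-fold, limma adjusted p = 0.0450), and the other tested genes of this list did not pass. Cd163, the macrophage receptor that takes up haemoglobin, was at 0.65 ± 0.60 (adjusted p = 0.833), and the lipoxygenase gene Alox5 at 0.31 ± 0.50 (adjusted p = 0.964). The antioxidant genes Gpx1 and Sod1 were at 0.23 and −0.08. The median of the list was 0.27, against −0.26 in DNBS_CEC and −0.11 in DNBS_Nissle, where 0 of 6 passed, beside 0% and 2.41% of all tested genes. Ltf was at 2.65 ± 0.95 in DNBS_CEC against healthy (adjusted p = 0.467) and at 3.45 ± 0.95 in DNBS_Nissle against healthy (adjusted p = 0.0742). The panel's calls in DNBS against healthy numbered 5 in all and fell to 0 without healthy sample 3, 4 or 6 or DNBS sample 2 or 3, to 1 without healthy sample 5 and to 2 without DNBS sample 5.

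Of the hypoxia list, 6 genes besides Hif1a were tested in DNBS against healthy and none passed, with a list median of 0.0020. Vegfa, the angiogenic growth factor induced by hypoxia, was at −0.04 in DNBS, −0.02 in DNBS_CEC and 0.04 in DNBS_Nissle against healthy. Adora2a, an adenosine receptor, was at 1.0 ± 0.67 (limma adjusted p = 0.725), Cxcr4, a chemokine receptor, at 0.21 ± 0.43 (adjusted p = 0.964) and Lep, which encodes leptin, at −1.33 ± 0.62 (adjusted p = 0.521) in DNBS against healthy. Lep is also among the fat cell markers described below, whose median difference in DNBS against healthy was −0.72. In DNBS_CEC 0 of 6 passed, with a median of −0.04, and in DNBS_Nissle 0 of 5, with a median of 0.04, beside 0.08 and −0.09 over all tested genes. With 1.09%, 0% and 2.41% of all tested genes passing in these comparisons, a count of 0 among so few genes is near the panel's share. Epo, the erythropoietin gene, was detected in 2 of 4 healthy, 3 DNBS, 4 DNBS_CEC and 0 DNBS_Nissle samples and was not tested against healthy. Pgk1, a glycolytic target of the factor, was itself a reference gene.

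**Figure D3:**
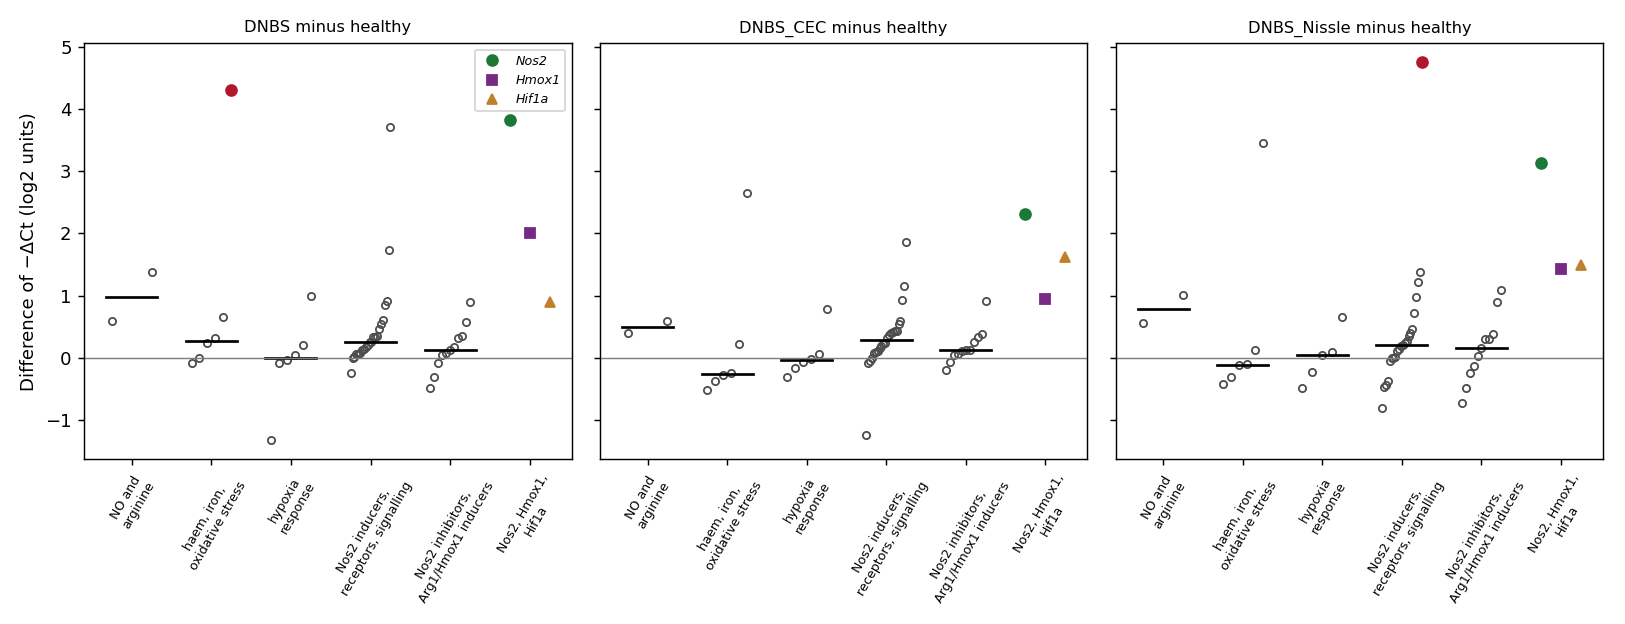
Difference from healthy mucosa (vertical axis, log2 units) of each tested gene in 5 pathway lists, beside Nos2, Hmox1 and Hif1a, for the 3 groups given DNBS; open points did not pass, red points passed a limma adjusted p of 0.05, and bars are list medians. The red points are Ltf in DNBS, at 4.32, and Il1b in DNBS_Nissle, at 4.76.

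The list of Nos2 inducers, with their receptors and signalling genes, had 26 genes on the panel and 22 tested against healthy. None passed in DNBS or DNBS_CEC, and Il1b, an inflammatory cytokine that induces Nos2, rose by 4.76 ± 1.02 in DNBS_Nissle (27.1-fold, limma adjusted p = 0.0175). It was at 3.71 ± 1.02 in DNBS (adjusted p = 0.107) and at 1.87 ± 1.02 in DNBS_CEC (adjusted p = 0.916). Counts of 0, 0 and 1 of 22 lie near the 1.09%, 0% and 2.41% of all tested genes that passed in these comparisons. List medians were 0.25, 0.28 and 0.20 for DNBS, DNBS_CEC and DNBS_Nissle, beside 0.12, 0.08 and −0.09 over all tested genes. The cytokine Tnf was at 1.74 ± 0.77 (adjusted p = 0.420) and the adaptor Myd88 at 0.85 ± 0.37 (adjusted p = 0.402) in DNBS against healthy. No gene of the panel passed in DNBS_Nissle against healthy without healthy sample 3, and the count of 11 fell to 7 without healthy sample 4 or 6 and to 3 without DNBS_Nissle sample 1.

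Several inducers were near the detection limit. Ifng, the cytokine best known for inducing Nos2 in macrophages, was detected in 2 healthy, 1 DNBS, 3 DNBS_CEC and 4 DNBS_Nissle samples of 4 each. Il6 was detected in 1 healthy sample and in every sample given DNBS. Il17a was detected in 0 healthy, 2 DNBS, 1 DNBS_CEC and 4 DNBS_Nissle samples.

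Among the inhibitors of Nos2 and inducers of Arg1 or Hmox1, 11 of 14 genes were tested and none passed in any comparison, which is near the shares over all tested genes (1.09%, 0% and 2.41% in DNBS, DNBS_CEC and DNBS_Nissle against healthy and 0% among the groups given DNBS). In DNBS against healthy, the receptor Il4ra was at 0.90 ± 0.40 (limma adjusted p = 0.445), the cytokine Tgfb1 at 0.57 ± 0.43 (adjusted p = 0.760) and the nuclear receptor Pparg at −0.49 ± 0.38 (adjusted p = 0.766). List medians against healthy were 0.13, 0.12 and 0.16. The cytokines Il4, Il13 and Il10 were detected in 0 of 16 samples. Among the groups given DNBS, no gene of these 5 lists passed in any of the 3 comparisons, nor did any other gene tested.

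Markers of some other cell types differed between the groups. Of 6 neutrophil markers tested against healthy, 3 passed as higher in DNBS, 0 in DNBS_CEC and 3 in DNBS_Nissle. Over all tested genes 1.09%, 0% and 2.41% passed in these comparisons. All 6 markers had a higher mean than healthy in each group, with median differences of 3.57, 2.03 and 3.72. The 5 of 9 neutrophil markers that were detected in all samples (S100a8, S100a9, Ltf, Itgam and Itgb2) had a mean level from −5.61 to −4.66 in healthy, −2.89 to 1.15 in DNBS, −4.94 to −0.48 in DNBS_CEC and −1.63 to −0.54 in DNBS_Nissle samples. The elastase assay Ela2, also on the neutrophil list, was detected in no sample at the limit of a Ct of 28. It amplified later in DNBS samples 2, 3, 4 and 5, at a Ct of 31.74, 29.95, 31.33 and 35.72. It also did so in DNBS_CEC sample 2 (31.997) and DNBS_Nissle sample 4 (29.95). All other samples, with every healthy one among them, were at 40, which stands for no amplification. Ela2 was not tested. Of 7 monocyte and macrophage markers, 1 rose in DNBS and in DNBS_Nissle: the chitinase-like Chi3l3, by 5.34 ± 1.13 (limma adjusted p = 0.0450) and 5.33 ± 1.13 (adjusted p = 0.0175). Of these 7, 5 had a higher mean than healthy in DNBS, 3 in DNBS_CEC and 3 in DNBS_Nissle, with median differences of 0.60, −0.38 and −0.11. The mean of the 6 markers other than Chi3l3 ran from −3.26 to −2.56 in healthy and from −3.06 to −2.05 in DNBS samples. It ran from −3.39 to −2.48 in DNBS_CEC and from −3.56 to −2.38 in DNBS_Nissle samples, and all these ranges overlapped. Chi3l3 was left out of that mean because it was not detected in DNBS_CEC sample 8. The epithelial keratin Krt8, the marker of the epithelium on this panel, was at 3.81 ± 0.80 in healthy, 3.97 ± 0.66 in DNBS, 3.88 ± 0.66 in DNBS_CEC and 3.13 ± 1.63 in DNBS_Nissle mucosa (SD, n = 4). Selp, an adhesion molecule of endothelium and platelets, rose by 3.26 ± 0.71 in DNBS_Nissle against healthy (limma adjusted p = 0.0175) and was at 1.76 ± 0.71 in DNBS (adjusted p = 0.324). No T cell, eosinophil or fat cell marker passed against healthy. The median difference of the 2 T cell markers was −0.96 in DNBS, −0.09 in DNBS_CEC and −1.07 in DNBS_Nissle. That of the fat cell markers was −0.72 and −0.77 over 4 genes in DNBS and DNBS_CEC and −2.22 over 3 genes in DNBS_Nissle. The part of these cells in the levels of Nos2, Hmox1 and Hif1a was not tested.

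The genes whose levels ran most like each of the 3 across the 16 samples were different for each. The measure is Pearson's r with the 411 other genes detected in all samples, given as a description, since all genes share the reference and the group differences. For Nos2 the nearest were Ltf (r = 0.90), the integrin subunit Itgb6 (0.84), the calprotectin subunits S100a8 (0.78) and S100a9 (0.77) and Tnf (0.75), with a median of 0.05 over all genes. For Hmox1 they were the monocyte chemokine Ccl2 (r = 0.91), the phospholipase Pla2g7 (0.86), the Fc receptor chain Fcer1g (0.84), the formyl peptide receptor Fpr1 (0.83) and Lilrb3 (0.81), with a median of 0.15. For Hif1a they were the TNF receptor Tnfrsf1b (r = 0.91), the kinase Lyn (0.85), the phospholipase activator Plaa (0.83), the T cell checkpoint receptor Ctla4 (0.80) and Lrp8 (0.79), with a median of 0.09. Nos2 and Hmox1 had an r of 0.63 with each other, and Hif1a had 0.62 with Nos2 and 0.50 with Hmox1.

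These genes were picked by r over the same 16 samples, which includes the spread within groups. Their r within groups is therefore a description and not a separate result. Taken as deviations from the group means, r was 0.72 for Nos2 with Ltf, 0.85 with Itgb6, 0.44 with S100a8, 0.40 with S100a9 and 0.68 with Tnf. It was 0.88 for Hmox1 with Ccl2 and 0.89 for Hif1a with Tnfrsf1b, but 0.49 for Hif1a with Lrp8. DNBS sample 5, the lowest DNBS sample for Hmox1 at −2.97, was also the lowest for Ccl2, at −5.49, and DNBS_CEC sample 2, the highest for Hif1a at 0.99, was also the highest for Tnfrsf1b, at 0.46.

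**Figure D4:**
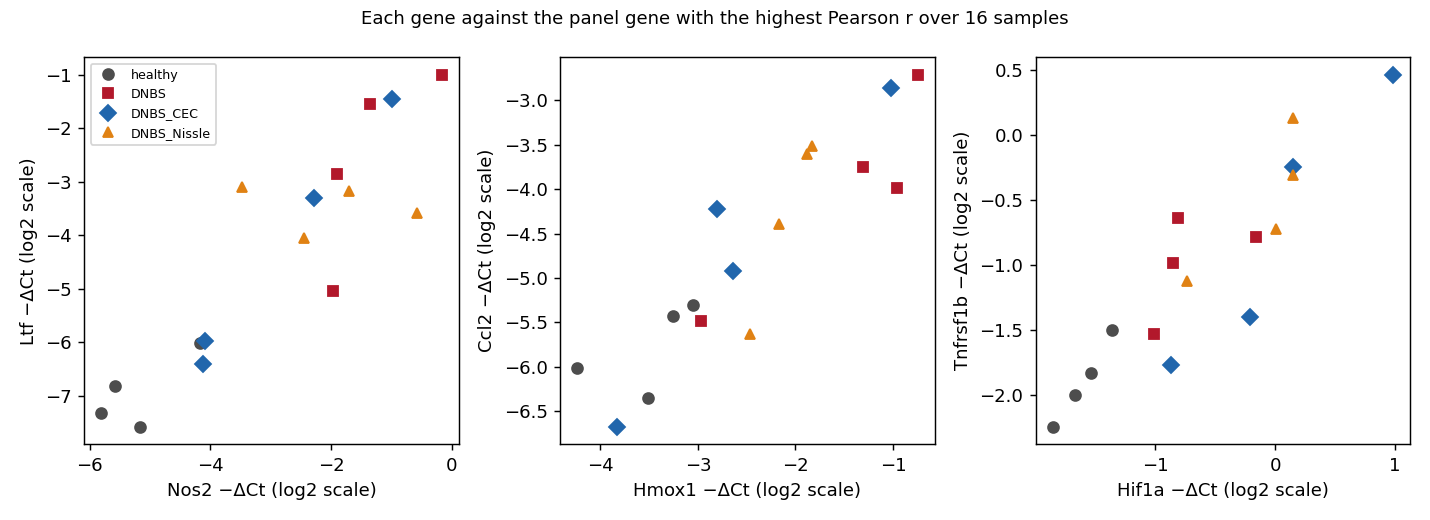
Level of Nos2, Hmox1 and Hif1a (horizontal axes) against that of the gene with the highest r for each, namely Ltf, Ccl2 and Tnfrsf1b (vertical axes), both as −ΔCt on a log2 scale; each point is 1 of 16 samples, coloured by group. The points run from lower left, where the healthy samples lie, to upper right, with r of 0.90, 0.91 and 0.91.

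Within groups the 3 genes were not shown to vary together. Over the deviations of 16 samples from their group means, Pearson's r was 0.12 for Nos2 with Hmox1 (two-sided permutation p = 0.752, Spearman's rho = −0.05, permutation p = 0.875). It was 0.44 for Nos2 with Hif1a (permutation p = 0.229, rho = 0.33, permutation p = 0.308) and 0.43 for Hmox1 with Hif1a (permutation p = 0.256, rho = 0.45, permutation p = 0.127). After Benjamini-Hochberg adjustment over the 3 pairs the permutation p was 0.752, 0.384 and 0.384 for r. Without the 2 samples farthest from the median of the first gene of each pair, r was 0.23, 0.11 and 0.45, so the value for Nos2 with Hif1a rested on those samples, DNBS_CEC sample 2 and DNBS_Nissle sample 1. Within the 12 samples given DNBS, r was 0.22, 0.44 and 0.45.

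**Figure D5:**
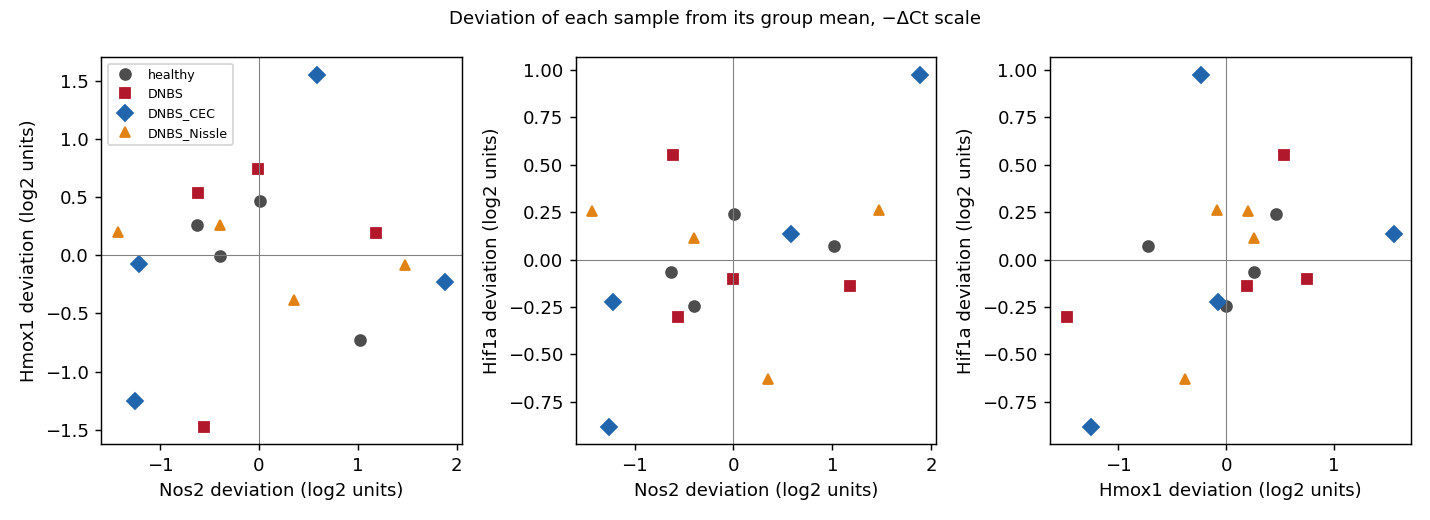
Deviation of each of the 16 samples from its group mean (log2 units) for the 3 pairs of genes; each point is a sample, coloured by group. The DNBS_CEC samples spread widest for Nos2, and the 3 panels have r of 0.12, 0.44 and 0.43.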

How the data were processed

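RNA of colonic mucosa was extracted with the mirVana kit and measured on the TaqMan OpenArray Mouse Inflammation Panel, per the labels' protocols. The authors deposited raw Ct values (unit other), not normalized, with 40 for no amplification, per the file headers, which also call the table a truncated example; thresholding software and quality filters were not given in the sources used here. Of 10368 values, 194 (1.87%) matched the average of the remaining 3 samples in the group to within 2e-06, and 532 had 4 or fewer decimals; the digit pair 40 is missing from values and assay names, and the Nos2 assay is listed without it. All were kept and left out in alternatives. A Ct gives no molecule count, and no counting interval is given.

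Levels were −ΔCt against the mean of 13 reference genes (19 assays), some not reported here by name. Genes detected (Ct of 28 or less) in 3 or more of the 4 samples in each group compared were tested with limma 3.58.1 in R 4.3.3, in 1 model over 16 samples, undetected values left out, with Benjamini-Hochberg adjustment over each of 6 comparisons and a threshold of 0.05. The 16 endogenous control names of the panel were not tested. The scripts were tested on simulated data. Correlations used 100000 permutations within groups.

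Nos2, Hmox1, Hif1a, the gene lists and the motifs were chosen with earlier results of these data known. Genes named are these 3, in each list those past the threshold and the 3 with the smallest p in DNBS against healthy, and the 5 most alike to each; a few list genes beyond the rule (Gpx1, Sod1, Vegfa, Epo, Pgk1, Krt8, Chi3l3, Selp, Ela2, Itgam, Itgb2, Tfrc, Ifng, Il6, Il17a, Il4, Il13 and Il10) were named after their values were seen. Alternatives changed the reference genes, the detection limit, the filled and short values, the samples in the fit, the replicate number as a block and each left-out sample.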

Additional observations from a re-analysis of the deposited data

Results flagged for a closer look

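Within groups of 4, a sample was picked out where its gap to the nearest other sample, divided by the range of the group, exceeded Dixon's 95% critical value. Of 114 gene and group combinations checked, 5 were picked out, and chance alone picks out about 1 in 20.

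Hif1a in DNBS_Nissle sample 7 was at −0.74 on the −ΔCt scale, below the other samples of its group at 0.0025 to 0.15; without it the Hif1a difference of DNBS_CEC from DNBS_Nissle turned to −0.088. Cd163 was at −4.62 in DNBS sample 5, against −2.88 to −2.72 in the other DNBS samples; this is also the DNBS sample with the lowest Hmox1 level. Il1b was at 1.5 in DNBS sample 3, against −3.45 to −2.81. Tnf was at −3.91 in DNBS sample 2, against −4.65 to −4.57; this is also the DNBS sample with the highest Nos2 level. Pparg was at −1.04 in DNBS_CEC sample 6, against −1.83 to −1.77.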

How the results depend on the processing

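For Nos2, Hmox1 and Hif1a the sign of each difference was the same under every alternative run, except Hif1a in DNBS_CEC against DNBS_Nissle. That difference was −0.093 with the 3 most stable reference genes, −0.23 with Gapdh alone and −0.13 without Ywhaz and Rplp2, and from −0.20 to 0.41 with 1 sample left out; the cause was not tested. No adjusted p among the groups given DNBS passed the threshold for any of the 3 genes under any alternative. The within-group r of Nos2 with Hmox1 was −0.05 as Spearman's rho. The count of 5 genes called in DNBS against healthy was 1 with all endogenous controls as reference, with the 3 most stable reference genes, without Ywhaz and Rplp2, with any Ct under 40 as detected, without filled values and with the endogenous controls tested too (chosen after seeing the data). It was 0 with the global mean and without healthy sample 3 and DNBS_Nissle sample 1 together, and 0 to 6 with 1 sample left out. In DNBS_Nissle against healthy the count of 11 was 20 with only the groups compared, 0 without healthy sample 3 and DNBS_Nissle sample 1 together and 0 to 14 with 1 sample left out; in DNBS_CEC against healthy it was 0 to 1.

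The replicate numbers of the labels were not used to pair the samples in the main fit. Over 10 pairs with the same number the correlation of deviations ran from −0.47 to 0.31 (median −0.07), with 4 above 0.1. Over 86 pairs with different numbers from different groups the median was −0.02. Whether a number marks something that samples share was not tested. With the number as a block, 2 genes were called in DNBS and 0 in DNBS_Nissle against healthy, and Nos2 differed by 3.22, 1.39 and 2.38 from healthy in DNBS, DNBS_CEC and DNBS_Nissle. Assays could not be swapped, because each of the 3 genes has 1 assay. With 4 samples a group, the intervals given above set what can be told apart.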

Other observations

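Some panel genes of redox and iron handling were outside the lists above and were chosen by name after the panel was seen. In DNBS against healthy, the glutathione peroxidase Gpx4 was at −0.33 ± 0.43, the peroxiredoxin Prdx5 at 0.13 ± 0.39, the stress-responsive transcription factor Nfe2l1 at 0.13 ± 0.41, the NADPH oxidase Nox4 at 0.14 ± 0.45 and the transferrin gene Trf at 0.19 ± 0.45 (log2 units, SE). Rcan1, a regulator of calcineurin, was at 0.85 ± 0.62 in DNBS and at 1.59 ± 0.62 in DNBS_Nissle against healthy (limma adjusted p = 0.208). None of these genes passed in any of the 6 comparisons.

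The transferrin receptor Tfrc, an endogenous control that was neither tested nor used in the reference, had a raw Ct of 20.31 ± 0.42 in healthy, 19.67 ± 0.56 in DNBS, 19.20 ± 0.79 in DNBS_CEC and 19.09 ± 0.44 in DNBS_Nissle mucosa (SD, n = 4). The reference gene Pgk1, a glycolytic enzyme, had a raw Ct of 18.44 ± 0.42, 18.07 ± 0.31, 17.72 ± 0.77 and 17.61 ± 0.66 in the same order. These raw values are not scaled to the reference genes. As −ΔCt, the mean level of Tfrc was −0.72, −0.31, 0.11 and −0.017 in that order. That of Pgk1, which is itself part of the reference, was 1.15, 1.30, 1.58 and 1.46. Without Pgk1 and Gapdh in the reference, Nos2 was 3.85 higher in DNBS than in healthy mucosa.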
